A study of Mus musculus with 2 samples.

Results

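The genes described are the 4 TCF/LEF transcription factors of the mouse (*Lef1*, *Tcf7*, *Tcf7l1* and *Tcf7l2*) and 6 genes known to respond to WNT (*Axin2*, *Sp5*, *Nkd1*, *Lgr4*, *Znrf3* and *Rnf43*). They were chosen by symbol, and each was found as 1 of the 31055 features of both count matrices, which makes 10 features in all. The data are single-cell transcriptomes of SOX9iresGFP+ cells sorted from pituitaries of Sox9iresGFP/+ mice at postnatal day 3 (PND3), with 1 library from 3 pooled male and 1 from 3 pooled female pituitaries. All cells carry the same reporter allele, none were treated, and GFP marks cells that express SOX9 or recently did. The male library held 10410 cells with 105883748 unique molecular identifiers (UMIs, each standing for 1 captured transcript) and the female library 5711 cells with 62830305 UMIs. Median depth per cell was 8902.5 UMIs (male) and 9789 (female), and 34.0% of male but 4.69% of female cells had fewer than 2000 genes. The libraries share 19 barcodes. With 1 library per sex, no test was made anywhere, and sex, animals, sort and library preparation cannot be told apart.

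In canonical WNT signalling a ligand stops the destruction of β-catenin, which enters the nucleus and acts on DNA only through a TCF/LEF factor. TCF7L1 is known mainly as a repressor of WNT targets in stem cells, LEF1 mainly as an activator, and TCF7 and TCF7L2 can do either. Many response genes feed back on the pathway: *Axin2* and *Nkd1* encode inhibitors inside the cell, *Znrf3* and *Rnf43* membrane ligases that remove Frizzled receptors, and *Lgr4* a receptor for R-spondins, which block those ligases. In the pituitary, SOX2+SOX9+ stem cells (SCs) are a known source of WNT ligands.

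TCF/LEF factors bind a short T-rich core. The letters CTTTGAT were searched on either strand in the RefSeq promoter windows of mouse build GRCm38.p6, which run from 250 bases before to 50 bases after each gene start. They occur in 3.73% of 32851 windows. Of the 10 genes, 9 had a window and together 15 windows, and 1 of these held the letters, that of *Sp5*. Its 250 bases before the start (chr2:70474673-70474922, plus strand) are shown since *Sp5*, with *Lef1*, differed most between classes among the 10 genes, with the same stretch of *Axin2* (chr11:108920099-108920348, plus strand), whose differences were smaller. Capitals mark the match, whose first base is 104 bases before the start.
Sp5: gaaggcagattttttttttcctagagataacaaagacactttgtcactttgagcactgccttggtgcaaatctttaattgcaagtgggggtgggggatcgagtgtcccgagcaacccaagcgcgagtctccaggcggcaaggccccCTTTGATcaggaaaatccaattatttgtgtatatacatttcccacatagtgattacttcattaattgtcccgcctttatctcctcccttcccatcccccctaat
Axin2: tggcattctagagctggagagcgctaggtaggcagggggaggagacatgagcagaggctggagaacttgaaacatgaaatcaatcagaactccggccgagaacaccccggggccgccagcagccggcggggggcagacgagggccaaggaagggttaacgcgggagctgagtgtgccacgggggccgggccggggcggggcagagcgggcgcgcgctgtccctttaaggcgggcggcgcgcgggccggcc
A match of 7 letters is a description and not a binding site.

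Cells were put in classes by marker UMIs alone, none of the 10 genes being a marker. The marker lists were chosen with earlier results of these data known. In these same cells the paper describes *Lef1* in its differentiating clusters, with *Cdkn1a* and, in 1 of them, *Shh*. Differences of *Lef1* between the classes are thus not independent of the choice of markers. SC-like cells had at least 3 of 8 stem markers (*Sox2*, *Sox9*, *Aldh1a2*, *Ednrb*, *Cpxm2*, *Cyp2f2*, *Mia*, *Rbpms*) at 2 UMIs or more. Differentiating-like cells had at least 2 of 9 markers, called late where a late one (*Smoc2*, *Pou3f4*, *C1ql2*, *Shh*) was among them and early where only *Cdkn1a*, *Dll1*, *Scx*, *Mycl* or *Myb* were. Either class was called cycling with 3 of 10 S phase or 3 of 10 G2 and mitosis markers. Gonadotroph-like cells (at least 2 of 8 markers, maturing where *Gnrhr*, *Lhb* or *Fshb* was present), POU1F1-like cells (at least 2 UMIs of *Pou1f1*), POMC-like and mesenchymal-like cells made up the rest. These classes were not divided by cycling, so they keep their cycling cells, unlike the SC-like and differentiating-like classes they are compared with. The part of cycling cells in those comparisons was not tested. A cell that met 1 endocrine or mesenchymal definition went to that class even where it also met the differentiating one, and the differentiating definition went before the stem one. So 40.2% of male and 63.4% of female early gonadotroph-like cells, 14.8% and 12.2% of POU1F1-like cells and 9.43% and 12.8% of POMC-like cells also met the differentiating definition. The numbers of markers were set after seeing the files, and the cuts are not sharp. In the male library 623 cells sat at the 2 differentiation markers needed and 1235 at 1 fewer, and in the female library 382 and 752.

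The cell type label of both libraries is stem cell, but SC-like cells were 2185 of 10410 male cells (21.0%) and 2747 of 5711 female cells (48.1%). A further 905 male and 721 female cells were cycling SC-like, 1251 and 939 differentiating-like, and 141 and 43 cycling differentiating-like. Gonadotroph-like cells numbered 990 and 191, POU1F1-like 662 and 262, POMC-like 265 and 133, and mesenchymal-like 661 and 309. No class was given to 3106 male cells, whose median was 1213.5 UMIs, and to 315 female cells. The stem markers summed to 3994 male and 4306 female counts per 1000000 UMIs (CPM) in SC-like cells, and to 845 and 990 in late differentiating-like cells. The 4 late markers summed to 6.42 and 4.77 CPM in SC-like cells against 558 and 570 CPM in late differentiating-like cells. Hormone transcripts were found in all classes: *Gh* was at 686 male and 238 female CPM in SC-like cells and at 1124 and 72.0 CPM in early differentiating-like cells. The part of free RNA in the levels below was not tested.

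Levels are given as CPM of the summed UMIs of a class in a library, with exact Poisson 95% intervals in brackets, which cover counting error only. A UMI count is not divided by gene length, so levels are compared within a gene. A ratio of classes was counted as higher or lower when it passed 2-fold the same way in both libraries with at least 20 UMIs over the classes in each.

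*Lef1* (chromosome 3, 131110471 to 131224356, mm10) encodes the lymphoid enhancer binding factor. It stood at 9.78 CPM [8.48, 11.2] in male and 9.46 CPM [8.3, 10.8] in female SC-like cells. In early differentiating-like cells it stood at 84.0 CPM [75.3, 93.3] (male) and 104 CPM [92.1, 117] (female). Late differentiating-like cells had the highest level of the classes in both libraries, 157 CPM [151, 164] and 151 CPM [143, 159]. The intervals of SC-like, early and late cells did not overlap in either library. Late cells were 16.1-fold [13.9, 18.7] and 15.9-fold [13.9, 18.3] above SC-like cells in the male and female libraries. Early cells were already 8.59-fold [7.2, 10.3] and 11.0-fold [9.2, 13.1] above them.

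The share of cells with a *Lef1* UMI was read on cells thinned to 5000 UMIs, with shallower cells left out. In SC-like cells it was 3.44% male (6.64% unthinned, 264 cells left out) and 3.37% female (5.61%, 109 left out). In late differentiating-like cells it was 49.6% (80.1%, 23 left out) and 50.8% (77.5%, 3 left out). It was 1.55% and 0.752% in POMC-like cells and 1.03% and 0.559% in cycling SC-like cells. How much of these is free RNA was not tested. The SC-like share stood above that of cycling SC-like cells in both libraries, and its interval in the male library (2.67 to 4.35%) overlapped that of POMC-like cells (0.32 to 4.45%).

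*Tcf7l1* (chromosome 6, 72626378 to 72789254, minus strand) encodes the TCF/LEF factor most linked with repression and had the opposite pattern. SC-like cells held 42.3 CPM [39.5, 45.2] (male) and 47.2 CPM [44.5, 50] (female). Early differentiating-like cells held 13.6 CPM [10.3, 17.7] and 15.6 CPM [11.2, 21.1]. Late differentiating-like cells held 4.24 CPM [3.2, 5.52] and 3.74 CPM [2.6, 5.2]. Each step was downward in both libraries with no overlap of the intervals. Late cells were 9.97-fold [7.59, 13.3] below SC-like cells in the male and 12.6-fold [9.03, 18.2] below in the female library, and 3.21-fold and 4.17-fold below early cells. The thinned share of cells with a *Tcf7l1* UMI was 17.9% male (29.2% unthinned, 264 cells left out) and 19.8% female (31.7%, 109 left out) in SC-like cells. In late differentiating-like cells it was 1.44% (4.43%, 23 left out) and 1.13% (4.24%, 3 left out), at or below the 2.06% and 3.01% of POMC-like cells.

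*Tcf7l2* (chromosome 19, 55741820 to 55933654), the TCF4 gene, moved the same way as *Tcf7l1* and by less. It was at 87.3 CPM [83.3, 91.4] in male and 100.5 CPM [96.6, 104] in female SC-like cells. Early differentiating-like cells held 56.0 CPM [49.0, 63.7] and 69.4 CPM [59.8, 80.1], and late cells 43.7 CPM [40.2, 47.5] and 47.1 CPM [42.8, 51.7]. All differentiating-like cells together were 1.87-fold [1.72, 2.04] and 1.93-fold [1.77, 2.11] below SC-like cells, just short of the 2-fold mark. *Tcf7* (chromosome 11, 52252371 to 52283014, minus strand), which encodes TCF1, was low throughout. Its levels in SC-like cells were 5.61 CPM [4.64, 6.72] male and 3.97 CPM [3.23, 4.83] female, and in late differentiating-like cells 8.02 CPM [6.55, 9.72] and 5.87 CPM [4.43, 7.65]. The intervals touched or overlapped in both libraries at these depths.

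**Figure D1:**
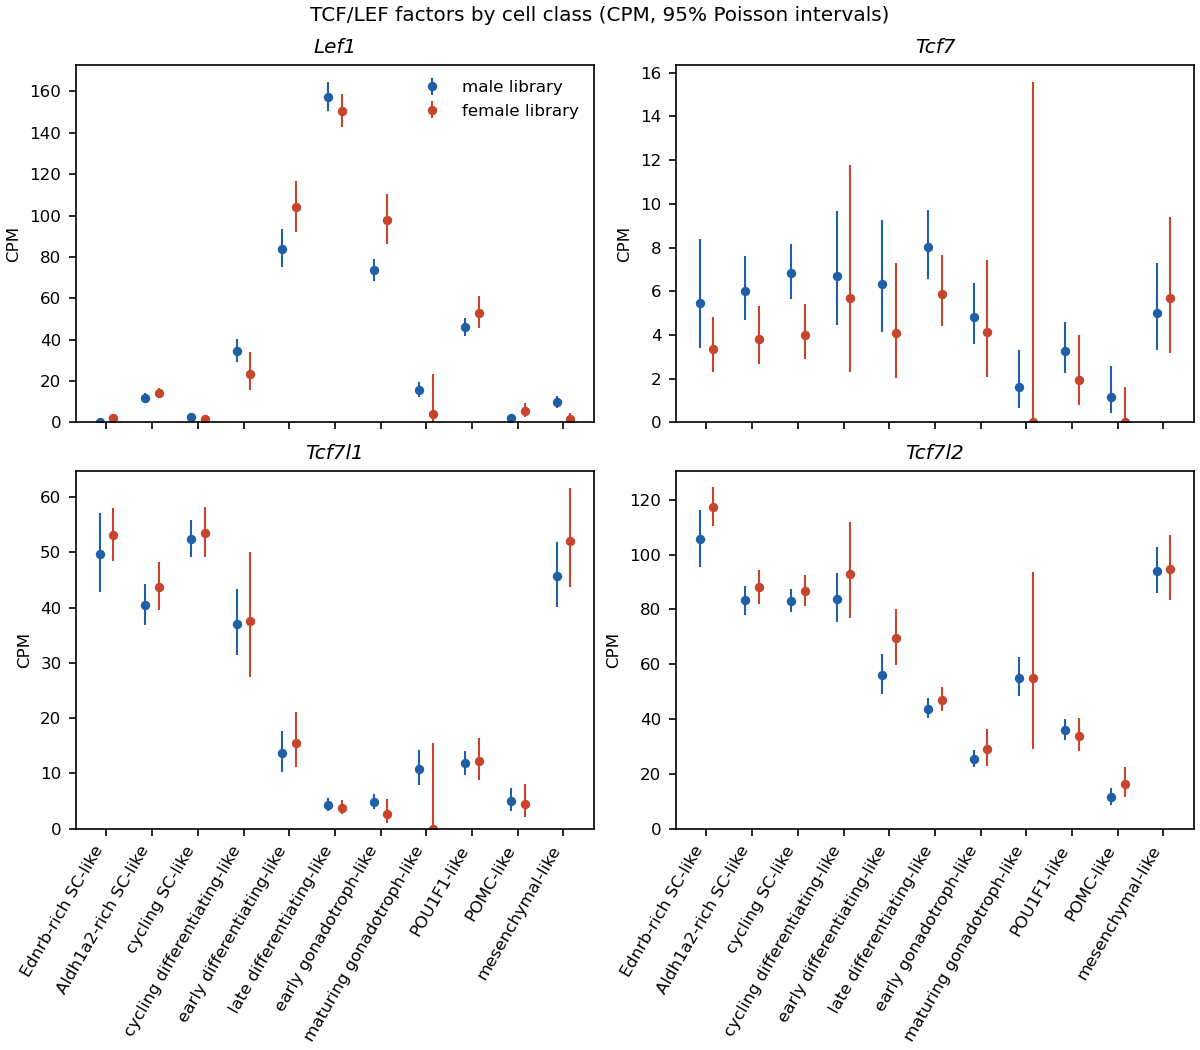
Level of each TCF/LEF gene in each class (CPM, linear axis) in the male and female library, 1 point per library with its exact Poisson 95% interval. SC-like cells that are rich in neither *Ednrb* nor *Aldh1a2* are not drawn. *Lef1* is at 157 and 151 CPM in late differentiating-like cells where *Tcf7l1* is at 4.24 and 3.74 CPM.

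The make-up of the family follows from these levels. As a share of all TCF/LEF UMIs, *Tcf7l2* made up 60.2% male and 62.4% female in SC-like cells, *Tcf7l1* 29.2% and 29.3%, and *Lef1* 6.75% and 5.88%. In early differentiating-like cells *Lef1* made up 52.5% and 53.8%, and in late ones 73.8% and 72.6%, with *Tcf7l1* at 1.99% and 1.8%. Capture can differ between genes, so the shares describe UMIs and not protein. The summed level of the 4 genes changed less than their make-up: it was 145 CPM male and 161 CPM female in SC-like cells and 213.5 and 207.3 CPM in late differentiating-like cells.

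**Figure D2:**
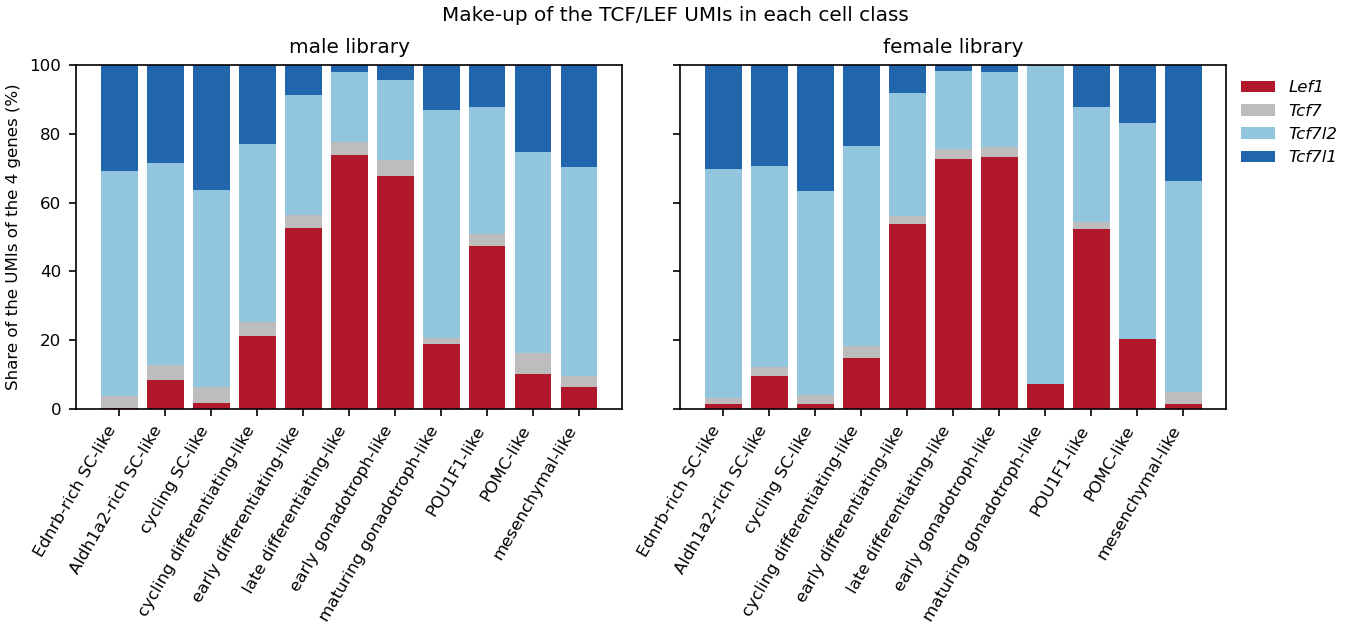
Share of each TCF/LEF gene in the summed TCF/LEF UMIs of a class (percent, stacked to 100), by class and library. The *Lef1* share goes from 6.75% and 5.88% in SC-like cells to 73.8% and 72.6% in late differentiating-like cells, and is 1.68% and 1.24% in cycling SC-like cells.

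The UMIs of *Lef1* and *Tcf7l1* were also counted cell by cell. Among early differentiating-like cells thinned to 5000 UMIs, 84 of 312 male cells had a *Lef1* UMI and no *Tcf7l1* UMI, 15 had the reverse, and 0 had both. In the female library 76 of 231 had *Lef1* alone, 13 *Tcf7l1* alone and 3 both. Among late cells 3 of 903 male and 2 of 705 female cells had both. A *Tcf7l1* UMI was found in 0% male and 3.80% female of early cells with *Lef1* and in 6.58% and 8.55% of those without, and in 0.670% and 0.559% against 2.20% and 1.73% of late cells. *Tcf7l1* is rare in both classes, so that few cells with both would be seen in any case. In SC-like cells 10 of 66 male and 9 of 89 female cells with a *Lef1* UMI had a *Tcf7l1* UMI (15.2% and 10.1%), against 18.0% and 20.1% of the cells without *Lef1*. In all endocrine cells these shares were 3.06% and 2.44% with *Lef1* and 1.99% and 3.06% without. At 5000 UMIs most transcripts of either gene are missed, so that cells with both are under-counted, and these counts are a description.

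Ordering thinned cells by how many of the 9 differentiation markers had a UMI gives a finer view, over cells that were not cycling and met no endocrine or mesenchymal definition. With 0 markers *Lef1* was at 6.39 CPM in 1345 male cells and 6.03 CPM in 1857 female cells. With 1 marker it was at 25.0 and 23.4 CPM, with 2 markers at 101 and 91.7 CPM, and with 3 markers at 135 and 138 CPM. The largest increase in CPM lay between 1 and 2 markers in both libraries. *Tcf7l1* was still at 38.9 male and 38.4 female CPM with 1 marker, against 39.4 and 44.6 CPM with 0, and was at 12.7 and 15.5 CPM with 2 and at 6.54 and 7.07 CPM with 3. In cells with 1 marker, then, *Lef1* was above its level in cells with 0 in both libraries, while the *Tcf7l1* intervals of 0 and 1 markers overlapped. The stem gene *Sox2* went from 609 male and 758 female CPM with 0 markers to 368 and 431 CPM with 5 or more.

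**Figure D3:**
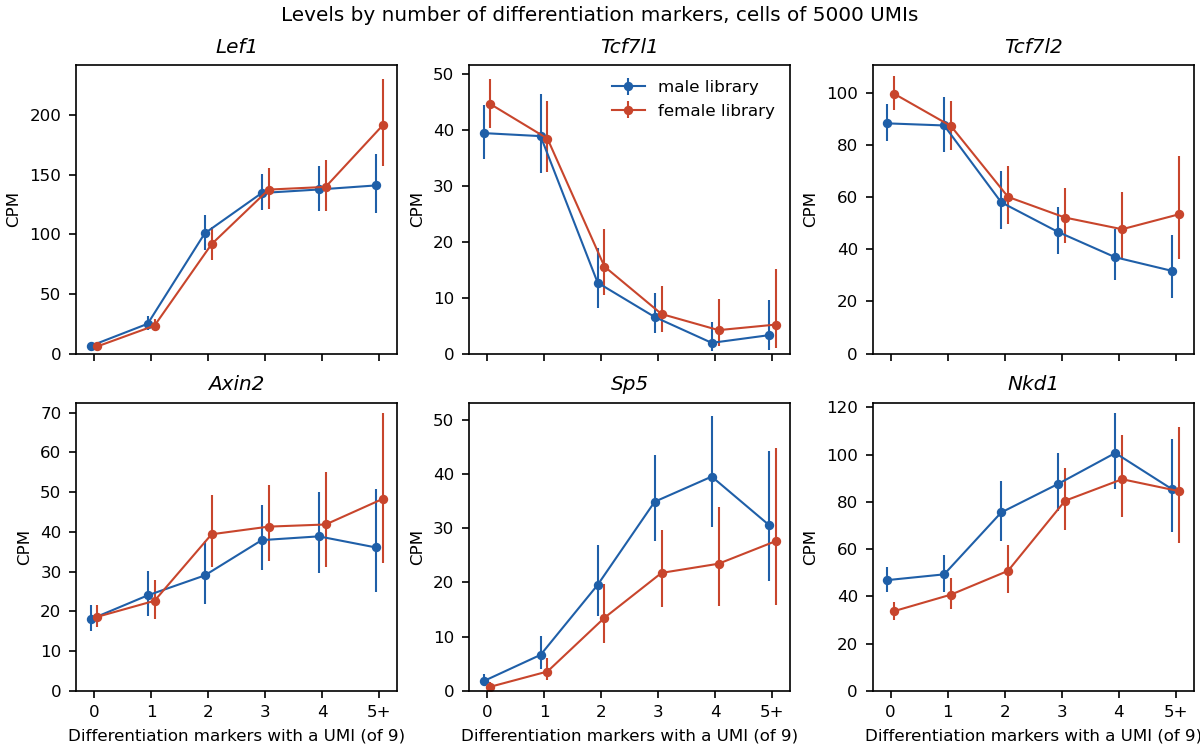
Level (CPM with exact Poisson 95% interval) of TCF/LEF and response genes against the number of differentiation markers with a UMI, in cells thinned to 5000 UMIs that were not cycling and met no endocrine or mesenchymal definition. *Lef1* is at 25.0 and 23.4 CPM with 1 marker and 101 and 91.7 CPM with 2, and *Tcf7l1* at 38.9 and 38.4 CPM and then 12.7 and 15.5 CPM.

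Across all 10 genes, 3 were counted as higher in differentiating-like than in SC-like cells (*Lef1*, *Sp5* and *Axin2*) and 1 as lower (*Tcf7l1*). Over all 13741 genes with enough UMIs, 5.52% were counted as higher and 14.8% as lower. The median log2 ratio of the 10 genes was 0.52 (male) and 0.58 (female), against -0.05 and -0.06 over all genes. *Lef1* was 14.3-fold [12.4, 16.6] and 14.8-fold [12.9, 17.0] higher, and *Sp5* 12.8-fold [9.66, 17.3] and 13.4-fold [9.51, 19.2]. The folds depend on where the classes were divided. *Lef1* was 5.48-fold and 6.82-fold higher with late markers alone as the definition. Early cells and late cells with only 1 late marker then leave the class, and those that also met the stem definition can fall among SC-like cells. The stem definition was met by 58.2% male and 64.1% female of early cells and by 27.6% and 31.4% of all late cells. *Lef1* was 25.9-fold and 31.0-fold higher against SC-like cells without a UMI of any differentiation marker. Against the latter *Sp5* was 20.5-fold and 52.8-fold higher. Few *Sp5* UMIs lie in cells of this kind: thinned cells with 0 markers, ordered above, held 12 male and 7 female ones. *Tcf7l1* was 6.5-fold [5.33, 8.0] and 7.39-fold [5.87, 9.43] lower, and 22.8-fold and 12.9-fold lower with classes from thinned cells. With only late markers as the definition *Axin2* was no longer counted. Early cells alone against SC-like cells gave the same 3 genes as higher and *Tcf7l1* as lower, where 2.77% and 8.07% of all genes were. Between late and early cells *Tcf7l1* was the gene counted, as lower, where 3.42% of all genes were. None was counted as higher there, beside 1.84% of all genes. *Tcf7l1* was not counted with 1 more marker needed, where all 10 genes had enough UMIs. Nor was it counted with classes from thinned cells, where 8 had enough.

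**Figure D4:**
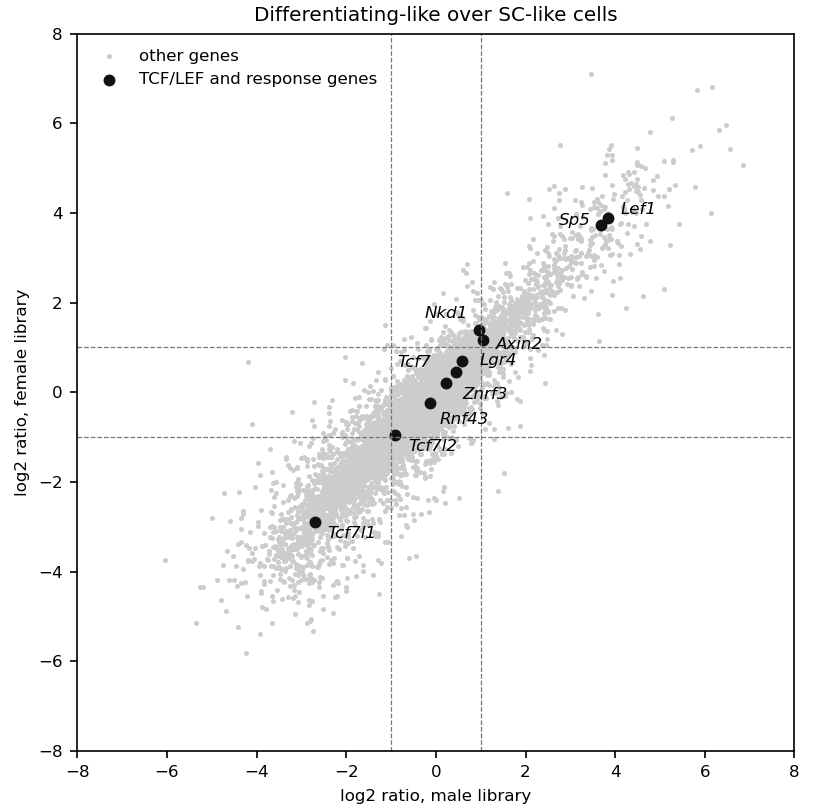
Log2 ratio of differentiating-like to SC-like cells in the female library against that in the male library, for 13690 genes in grey (those with 0 UMIs in a class are left out and 2 lie beyond the axes) and the 10 genes in black. Dashed lines mark 2-fold. *Lef1* and *Sp5* lie beyond 3.5 on both axes and *Tcf7l1* below -2.5.

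*Axin2* (chromosome 11, 108920349 to 108950783), a scaffold of the β-catenin destruction complex and a widely used reporter of WNT response, was at 19.8 CPM [17.9, 21.8] in male and 20.1 CPM [18.3, 21.9] in female SC-like cells. Early differentiating-like cells had the highest level, 46.7 CPM [40.4, 53.8] and 51.6 CPM [43.4, 60.9]. Late cells had 39.1 CPM [35.8, 42.7] and 42.9 CPM [38.8, 47.3], whose intervals overlapped those of early cells. The ratio of all differentiating-like to SC-like cells was 2.07 [1.83, 2.35] and 2.24 [1.98, 2.53], so that the limits included values on either side of 2-fold.

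*Sp5* (chromosome 2, 70474923 to 70477729), a transcription factor known as a direct WNT target, was low in SC-like cells, at 2.54 CPM [1.9, 3.32] male and 1.56 CPM [1.11, 2.14] female. It rested there on 53 and 39 UMIs. It stood at 22.9 CPM [18.5, 28.0] and 11.9 CPM [8.12, 16.8] in early and 35.6 CPM [32.5, 39.0] and 23.5 CPM [20.5, 26.8] in late differentiating-like cells. The thinned share of late cells with an *Sp5* UMI was 13.0% (25.4% unthinned, 23 cells left out) and 10.5% (17.1%, 3 left out), against 0.781% (1.42%) and 0.531% (1.02%) of SC-like cells. In the order of markers its level went from 1.78 male and 0.754 female CPM with 0 to 30.6 and 27.6 CPM with 5 or more. Its male level was above its female level in both differentiating-like classes by less than 2-fold.

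*Nkd1* (chromosome 8, 88521354 to 88594884) and *Lgr4* (chromosome 2, 109917647 to 110014257) were expressed in SC-like cells and higher later. *Nkd1*, the Naked cuticle inhibitor of Dishevelled, was at 48.3 CPM [45.3, 51.4] male and 34.1 CPM [31.9, 36.5] female in SC-like cells. Late differentiating-like cells held 104 CPM [98.8, 110] and 98.5 CPM [92.2, 105], which is 2.16-fold and 2.89-fold. *Nkd1* was thereby counted as higher in late cells, beside *Lef1* and *Sp5*, where 6.01% of all genes were. Without the highest doublet scores or with the mean over single cells, *Axin2* was counted as higher and *Tcf7l2* as lower as well. *Axin2* was also counted with edgeR's TMM scaling, with totals without the 50 most abundant genes and with SC-like cells free of differentiation markers. *Tcf7l2* was also counted with at least 2000 genes per cell, with 1 more marker needed and with classes from thinned cells. *Lgr4* was at 112 CPM [108, 117] male and 86.8 CPM [83.2, 90.5] female in SC-like cells and at 174 CPM [167, 181] and 142 CPM [134, 149] in late cells. Its ratio of all differentiating-like to SC-like cells was 1.51 and 1.62.

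*Znrf3* (chromosome 11, 5276324 to 5444847, minus strand) and *Rnf43* (chromosome 11, 87662722 to 87735539), the paired ligases, barely differed between these classes. *Znrf3* was at 17.1 CPM [15.3, 18.9] male and 17.5 CPM [15.9, 19.2] female in SC-like and at 20.1 CPM [17.7, 22.6] and 20.5 CPM [17.7, 23.6] in late differentiating-like cells. *Rnf43* was at 10.8 CPM [9.42, 12.3] and 9.26 CPM [8.11, 10.5] in SC-like and at 8.87 CPM [7.32, 10.6] and 7.37 CPM [5.73, 9.33] in late cells. The intervals of the classes overlapped for both genes in both libraries.

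**Figure D5:**
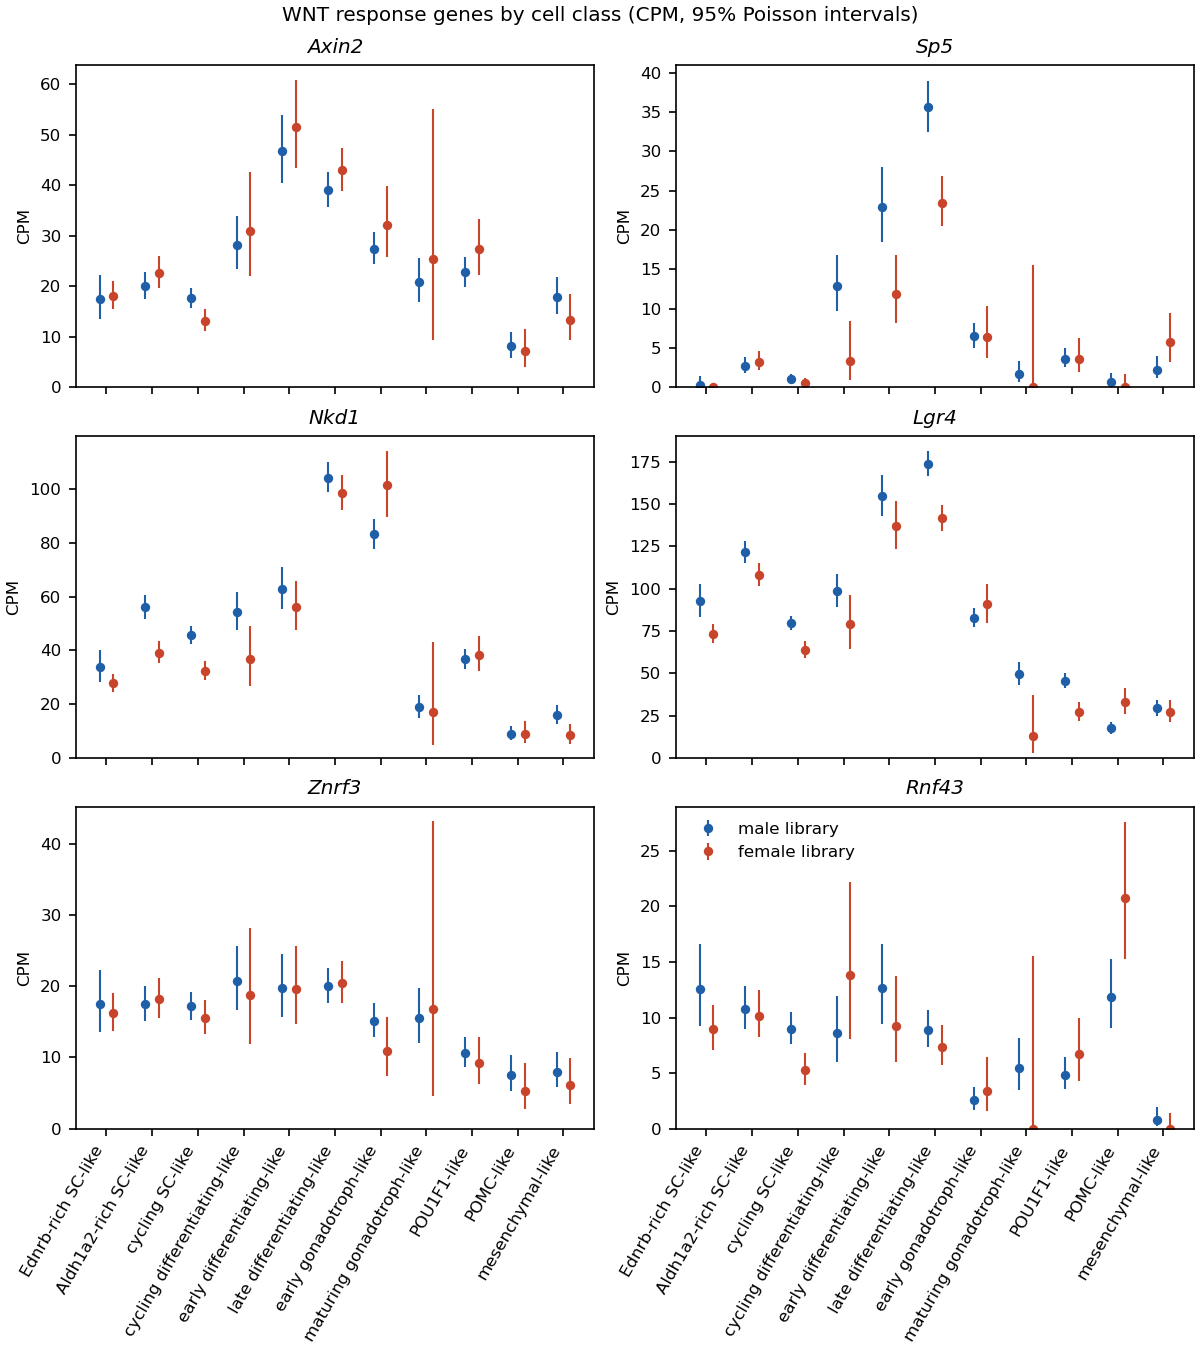
Level of each response gene in each class (CPM, linear axis), 1 point per library with its exact Poisson 95% interval. SC-like cells that are rich in neither *Ednrb* nor *Aldh1a2* are not drawn. *Lgr4* and *Nkd1* span the widest ranges in CPM, and *Sp5* runs from 35.6 CPM in male late differentiating-like cells to 0 UMIs in female *Ednrb*-rich SC-like cells, while *Znrf3* stays between 5.3 and 20.8 CPM in the classes drawn.

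Other genes of canonical WNT signalling, were taken as a list of 56 chosen for their role. Of these, 45 had enough UMIs, and 2 were counted as higher and 9 as lower in differentiating-like than in SC-like cells, where 5.52% and 14.8% of all genes were. Of the signal transduction genes 0 of 15 were higher and 1 lower, of the receptors 1 and 1 of 4, of the cofactors 0 and 2 of 16, and of the further response and feedback genes 1 and 5 of the 10 with enough UMIs. The median log2 ratio of those 10 was -0.83 male and -1.02 female, against 0.78 and 0.93 for the 6 response genes described above. The higher ones were *Lgr5*, an R-spondin receptor (2.64-fold male and 3.81-fold female), and *Sp8*, a relative of *Sp5* (4.15-fold and 4.39-fold). *Sp8* was low even so, at 1.31 and 1.71 CPM in late differentiating-like cells. The median log2 ratio of the 45 was -0.06 and 0.03.

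Of the 9 lower genes 5 were from the further response and feedback genes. *Lgr6*, another R-spondin receptor, was 6.15-fold and 3.69-fold lower, and *Rspo3*, an R-spondin, 5.15-fold and 7.09-fold lower. *Amer1*, which acts in the β-catenin destruction complex, was 3.17-fold and 3.92-fold lower. The cofactor genes *Bcl9l* (2.22-fold and 2.56-fold) and *Tle3*, a Groucho co-repressor (2.11-fold and 2.13-fold), were lower by little more than 2-fold. The WNT-binding inhibitors *Wif1* (2.68-fold and 3.52-fold) and *Sfrp1* (2.35-fold and 3.2-fold), the BMP pseudoreceptor gene *Bambi* (3.61-fold and 2.08-fold) and the cyclin gene *Ccnd1* (2.19-fold and 2.46-fold) completed the set. *Lgr5* and *Lgr6* thus went opposite ways: *Lgr5* was at 4.41 male and 5.77 female CPM in SC-like and 10.9 and 21.5 CPM in late cells, and *Lgr6* at 20.9 and 17.1 CPM in SC-like and 1.93 and 3.31 CPM in late cells. *Ctnnb1*, which encodes β-catenin, was at 167 and 185 CPM in SC-like and 166 and 196 CPM in late cells, with overlapping intervals in both libraries.

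Cycling SC-like cells had still less *Lef1* than other SC-like cells, 2.42 CPM [1.75, 3.27] male and 1.81 CPM [1.09, 2.83] female, or 4.03-fold [2.89, 5.74] and 5.23-fold [3.27, 8.84] lower. *Sp5* was 2.37-fold [1.38, 4.24] and 3.28-fold [1.29, 10.7] lower, on 19 and 5 UMIs. These were the 2 of the 10 genes counted as lower, where 1.34% of all genes were, and none was counted as higher, where 4.53% were. *Tcf7l1* was at 52.4 CPM [49.1, 55.9] and 53.6 CPM [49.2, 58.2], above its SC-like level without overlap of the intervals in the male library alone. *Axin2* was at 17.6 CPM [15.7, 19.7] and 13.1 CPM [11.0, 15.5], below its SC-like interval in the female library. *Lgr4* was at 79.6 CPM [75.5, 83.8] and 64.0 CPM [59.3, 69.1], below its SC-like intervals in both. *Lef1* alone was counted with 1 more marker needed, with classes from thinned cells and against SC-like cells without a UMI of any differentiation marker, where it was 2.22-fold and 2.49-fold lower. In the last of these *Sp5* was 1.48-fold lower in male and 1.20-fold higher in female cells. Of the 45 pathway genes with enough UMIs, 0 were counted either way. Between G2 and mitosis cells and S phase cells, 0 of the 8 members with enough UMIs were counted, where 2.68% of all genes were higher and 0.369% lower.

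In cycling differentiating-like cells *Lef1* and *Tcf7l1* lay between their SC-like and other differentiating-like levels. Stem markers moved with this: 89.4% male and 95.3% female of these cells also met the stem definition, against 35.6% and 39.4% of other differentiating-like cells, and their stem markers summed to 3030 and 3115 CPM. Their part in the values was not tested. *Lef1* was at 34.4 CPM [29.0, 40.5] male and 23.7 CPM [15.8, 34.0] female, which is 4.06-fold and 5.92-fold below other differentiating-like cells. *Tcf7l1* was at 37.1 CPM [31.5, 43.4] and 37.5 CPM [27.5, 50.1], or 5.7-fold [4.44, 7.34] and 5.88-fold [3.99, 8.58] above them. *Sp5* was 2.52-fold and 6.4-fold lower, the female value on 4 UMIs. These are 1 gene counted as higher and 2 as lower, where 10.6% and 3.73% of all genes were. *Lef1* made up 21.2% and 14.8% of TCF/LEF UMIs. These cells had a median of 25924 male and 26769 female UMIs, against 13163 and 12194 for other differentiating-like cells, and the part of droplets with a pair of cells was not tested. With late markers alone as the definition none of the 3 calls held, and *Lef1* was 1.16-fold and 2.89-fold lower. Of the 8 genes with enough UMIs there, *Nkd1* alone was counted, as lower. With classes from thinned cells 0 of 8 were counted as higher and 7 as lower (*Lef1*, *Tcf7l2*, *Axin2*, *Sp5*, *Nkd1*, *Lgr4* and *Rnf43*), and *Tcf7l1* was not counted. No share over all genes is given for that setting, so the count says nothing particular to these genes. The *Sp5* call was lost with the mean over single cells.

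Among SC-like cells, *Lef1* differed by the SC gene they were rich in. *Ednrb* marks SCs that line the cleft, and *Aldh1a2* encodes a retinoic acid synthase. The 381 male *Ednrb*-rich cells held 1 *Lef1* UMI in all (0.261 CPM [0.00661, 1.46]), and the 978 female ones 2.29 CPM [1.42, 3.5]. In *Aldh1a2*-rich cells *Lef1* was at 12 CPM [10.0, 14.1] and 14.2 CPM [11.9, 16.9]. The female ratio was 6.21-fold [3.9, 10.4] lower in *Ednrb*-rich cells, and the male ratio, on that single UMI, 45.8-fold with a lower limit of 8.08. *Sp5* had 1 male UMI and 0 female UMIs in *Ednrb*-rich cells against 2.67 CPM [1.81, 3.78] and 3.17 CPM [2.13, 4.56] in *Aldh1a2*-rich cells. With 3 counts put in place of 0, its female level was 9.70-fold lower, a value that leaves out the counting error of the *Aldh1a2*-rich level. *Lef1* and *Sp5* were the 2 of 10 genes counted as lower, where 1.07% of all genes were. *Sp5* was not counted with classes from thinned cells or in SC-like cells without a UMI of any differentiation marker. In either case 9 of the 10 genes had enough UMIs. *Tcf7l1* and *Tcf7l2* had their higher level in *Ednrb*-rich cells, at 49.6 and 53.1 CPM against 40.5 and 43.8 CPM, and at 106 and 117 CPM against 83.2 and 88.1 CPM. *Nkd1* and *Lgr4* had their lower level there, *Nkd1* at 33.7 and 27.7 CPM against 56.0 and 39.1 CPM. None of *Tcf7l1*, *Tcf7l2*, *Nkd1* and *Lgr4* was counted either way.

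All endocrine cells combined had more *Lef1* and less *Tcf7l1* and *Tcf7l2* than SC-like cells. *Lef1* was 4.49-fold [3.87, 5.23] male and 5.58-fold [4.76, 6.56] female higher. *Tcf7l1* was 5.27-fold [4.57, 6.11] and 6.76-fold [5.23, 8.9] lower, and *Tcf7l2* 2.82-fold [2.61, 3.06] and 3.53-fold [3.1, 4.03] lower. The count of 1 higher and 2 lower of 10 stands beside 11.3% of all genes counted as higher and 11.3% as lower. Without the endocrine cells that also met the differentiating definition, *Lef1* was 2.09-fold and 3.16-fold higher. It was not counted with late markers alone as that definition (1.45-fold and 2.27-fold). With 1 more marker needed, *Tcf7* and *Lgr4* joined these 3. The endocrine classes differed from each other, as follows.

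In early gonadotroph-like cells *Lef1* made up most TCF/LEF UMIs, as it did in late differentiating-like cells, and many of these cells still held differentiation markers. *Lef1* was at 73.7 CPM [68.6, 79.1] in 723 male and 97.9 CPM [86.4, 111] in 175 female cells, which is 67.8% and 73.2% of TCF/LEF UMIs. *Tcf7l1* was at 4.75 CPM [3.52, 6.26] and 2.65 CPM [1.06, 5.45]. *Nkd1* was at 83.3 CPM [77.9, 89.0] and 101 CPM [89.6, 114], and *Axin2* at 27.4 CPM [24.4, 30.8] and 32.1 CPM [25.7, 39.7]. The median cell held 1 male and 4 female *Smoc2* UMIs, 1 and 2 *Mycl* UMIs and 0 and 2 *Sox2* UMIs, so that the female class stood nearer to late differentiating-like cells (5 and 4 *Smoc2*, 5 and 4 *Mycl*, 4 and 5 *Sox2*). Without the cells that also met the differentiating definition *Lef1* was at 28.5 CPM [24.3, 33.3] and 41.6 CPM [29.3, 57.4], or 48.9% and 63.8% of TCF/LEF UMIs, and *Nkd1* at 54.0 CPM [48.1, 60.5] and 74.3 CPM [57.4, 94.5]. Taking all gonadotroph-like cells against late differentiating-like cells, *Sp5* was 7.08-fold [5.54, 9.16] and 3.98-fold [2.43, 6.96] lower and *Rnf43* 2.59-fold and 2.36-fold lower. These were 2 of 10 genes, where 1.69% of all genes were counted as lower, and none was higher, beside 5.26%. Without the cells that met both definitions *Lef1* (7.47-fold and 4.36-fold) and *Lgr4* (3.88-fold and 2.76-fold) were counted as lower as well. Without them *Sp5* in gonadotroph-like cells was at 1.62 CPM on 15 male UMIs and had 0 female UMIs. *Rnf43* was not counted with classes from thinned cells, where 7 of the 10 genes had enough UMIs.

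Maturing gonadotroph-like cells were 267 male and 16 female cells, and the female values rest on few UMIs. *Lef1* was at 15.6 CPM [12.1, 19.7] in the male cells and had 1 UMI in the female cells. It was 4.74-fold [3.69, 6.16] and 23.2-fold [4.13, 921] below early gonadotroph-like cells. *Nkd1* was at 18.8 CPM [14.9, 23.3] and, on 4 UMIs, 16.9 CPM [4.6, 43.2], or 4.44-fold and 6.01-fold lower. Of the 6 members with enough UMIs these 2 were counted as lower, where 1.34% of all genes were. *Tcf7l2* went the other way, from 25.4 CPM [22.4, 28.6] to 55.1 CPM [48.4, 62.5] in the male and from 29.1 CPM [23.0, 36.4] to 54.8 CPM [29.2, 93.8] in the female library, on 13 UMIs. It was not counted here. It was counted as higher without the highest doublet scores, with 1 more marker needed and without cells that met the differentiating definition. *Lef1* made up 18.7% of male TCF/LEF UMIs. Against early gonadotroph-like cells that did not meet the differentiating definition, male *Lef1* was 2.91-fold lower in maturing cells that did not meet it either.

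POU1F1-like cells, of the lineage of somatotrophs, lactotrophs and thyrotrophs, held *Lef1* at 46.1 CPM [42.0, 50.5] male and 52.9 CPM [45.6, 60.9] female. This is 3.42-fold and 2.85-fold below late differentiating-like cells. *Tcf7l1* was at 11.8 CPM [9.77, 14.1] and 12.2 CPM [8.89, 16.4], or 2.78-fold [2.0, 3.9] and 3.27-fold [2.05, 5.26] above late differentiating-like cells. Against those cells *Sp5* was 9.98-fold and 6.5-fold lower, *Lgr4* 3.82-fold and 5.24-fold, *Nkd1* 2.84-fold and 2.57-fold and *Tcf7* 2.45-fold and 3.02-fold. That makes 1 gene counted as higher and 5 as lower of 10, beside 11.6% and 3.72% of all genes. *Tcf7l1* was not counted with 1 more marker needed, where it was 2.86-fold higher in male and 1.27-fold lower in female cells, or with classes from thinned cells, and *Tcf7* not with the latter or with the mean over single cells. Without cells that met the differentiating definition *Lef1* was at 30.1 CPM [26.3, 34.2] and 46.1 CPM [38.7, 54.5]. *Sp5* was then at 0.642 male and 2.34 female CPM, on 5 and 7 UMIs. In all POU1F1-like cells *Axin2* was at 22.7 CPM [19.9, 25.8] and 27.3 CPM [22.1, 33.2].

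Within this lineage, *Lef1* was lower in the 116 male and 39 female cells that also passed a hormone count of *Prl*, *Gh* or *Tshb*. It was at 22.3 CPM [16.8, 29.1] and 26.8 CPM [16.1, 41.8] in them and at 53.6 CPM [48.5, 59.0] and 59.3 CPM [50.7, 68.8] in the rest, a ratio of 2.4 and 2.21. *Nkd1* was 2.12-fold and 3.52-fold lower. These were 2 of the 8 genes with enough UMIs, where 2.38% of all genes were counted as lower, and the median log2 ratio over all genes was -0.14 and -0.30. Neither call held with edgeR's TMM scaling, under which *Lef1* was 2.22-fold and 1.90-fold and *Nkd1* 1.95-fold and 3.03-fold lower, with totals without the 50 most abundant genes, with cells of several definitions kept or with 1 more marker needed. The *Nkd1* call was also lost with classes from thinned cells and without cells that met the differentiating definition. Other genes moved with the same split: *Gh* was at 94392 male and 195180 female CPM in the cells with hormone, and the 8 stem markers summed to 1011 and 188 CPM in them against 897 and 876 CPM in the rest. The stem definition was also met by 45.7% and 5.13% of the cells with hormone and by 22.7% and 20.6% of the rest. Their part in the values was not tested.

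POMC-like cells, of the corticotroph and melanotroph lineage, had the lowest summed TCF/LEF level of the classes, 19.6 CPM male and 26.0 CPM female. *Lef1* was at 1.98 CPM [0.948, 3.64] on 10 UMIs and 5.3 CPM [2.74, 9.25] on 12. *Tcf7l2* was at 11.5 CPM [8.71, 14.8] and 16.3 CPM [11.5, 22.5], 7.61-fold [5.86, 10.1] and 6.15-fold [4.45, 8.76] below SC-like cells. *Nkd1* was 5.43-fold and 3.87-fold lower, *Lgr4* 6.45-fold and 2.62-fold, and *Axin2* 2.44-fold and 2.84-fold. In all 8 of 10 genes were counted as lower, where 17.1% of all genes were, among them *Sp5*, whose female value is 0 UMIs, with a limit of 1.32 CPM from 3 counts that lies close to its SC-like level. None was counted as higher, beside 9.14% of all genes. *Rnf43* was at 11.9 CPM [9.05, 15.3] and 20.7 CPM [15.2, 27.6], the highest level of that gene among the named classes in the female library. *Pomc* alone took 247281 male and 121572 female CPM of these cells, so that all other CPM are lowered, and the median log2 ratio over all genes was -0.33 and -0.08. With TMM scaling 6 genes were counted as lower, since male *Axin2* was then 1.94-fold and male *Znrf3* 1.81-fold lower, and the same 6 with totals without the 50 most abundant genes. With the mean over single cells 5 were (*Tcf7*, *Tcf7l1*, *Tcf7l2*, *Nkd1* and *Lgr4*), and these 5 were counted under every alternative run. Of these *Tcf7* had only 6 male and 0 female UMIs in POMC-like cells, and it had enough UMIs only through those of SC-like cells. *Lef1* was counted as lower too with 1 more marker needed, with classes from thinned cells and with early or late markers alone as the differentiating definition. It was also counted without the cells that met that definition, at 1.42 male and 3.01 female CPM.

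Mesenchymal-like cells had *Tcf7l1* and *Tcf7l2* at levels close to those of SC-like cells and lower levels of 4 of the 6 response genes. *Tcf7l1* was at 45.8 CPM [40.2, 51.8] male and 52.1 CPM [43.7, 61.6] female, and *Tcf7l2* at 94.1 CPM [86.1, 103] and 94.7 CPM [83.3, 107]. Their intervals overlapped those of SC-like cells. *Lef1* made up 6.26% male and 1.23% female of TCF/LEF UMIs, and 2.47% and 0.759% without the cells that also met the differentiating definition. It was counted as lower than in SC-like cells without those cells, without the highest doublet scores and with late markers alone as the differentiating definition. *Nkd1* was at 15.8 CPM [12.6, 19.5] and 8.37 CPM [5.24, 12.7], or 3.05-fold and 4.08-fold lower, *Lgr4* 3.84-fold and 3.17-fold lower and *Znrf3* 2.13-fold and 2.88-fold lower. *Rnf43* had 4 male UMIs (14.5-fold [5.59, 53.7] lower) and 0 female UMIs. With 3 counts put in place of 0, or 1.14 CPM, its female level was 8.12-fold lower, without the counting error of the SC-like level. These 4 of 10 genes were counted as lower, where 15.1% of all genes were. *Znrf3* was not counted with cells of several definitions kept (1.82-fold and 2.22-fold). *Axin2*, at 17.9 CPM [14.5, 21.8] and 13.3 CPM [9.27, 18.5], was below its SC-like level by less than 2-fold, with intervals that overlapped narrowly in the female library. Between mesenchymal-like cells with and without *Tcf21*, 0 of 5 genes were counted, where 1.26% of all genes were higher and 0.826% lower with it. Of the wider list, 46 genes had enough UMIs, and 6 were counted as higher (*Tle2*, *Nkd2*, *Cd44*, *Rspo1*, *Rspo3* and *Sfrp1*) and 6 as lower (*Lgr5*, *Lgr6*, *Tle4*, *Wif1*, *Ccnd1* and *Sfrp2*), where 11.4% and 15.1% of all genes were. The R-spondin gene *Rspo3*, whose ratio was the highest of these, was at 110 male and 124 female CPM in these cells and at 2.11 and 1.76 CPM in SC-like cells.

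Male and female levels were close for most genes and classes. Of 80 pairs of gene and class 77 had enough UMIs, and 3 were past 2-fold towards the male library and 2 towards the female, where 2.98% and 1.57% of all such pairs were. *Lef1* in mesenchymal-like cells was 5.09-fold [2.05, 16.3] higher in the male library, on 52 UMIs against 5. Markers of other cells moved with it in mesenchymal-like cells: the 8 stem markers summed to 338 male and 231 female CPM, the 8 gonadotroph markers to 69.6 and 16.0 CPM, and *Pomc* to 416 and 33.1 CPM, and their part in the *Lef1* value was not tested. Without the mesenchymal-like cells that also met the differentiating definition *Lef1* was 2.58-fold lower in male and 7.99-fold lower in female mesenchymal-like than in SC-like cells. Without the cells of highest doublet score *Lef1* was at 4.01 male and 1.17 female CPM there. *Tcf7l1* in gonadotroph-like cells was 2.68-fold [1.25, 6.84] higher and *Sp5* in cycling SC-like cells 2.25-fold [0.812, 7.71] higher in the male library, and *Lef1* in POMC-like cells and *Sp5* in mesenchymal-like cells were higher in the female library. All 5 rest on 15 or fewer UMIs in the female library. The gonadotroph-like class also differed in make-up: maturing cells were 267 of 990 male and 16 of 191 female cells. The differentiating definition was also met by 31.8% of male and 59.7% of female gonadotroph-like cells. In early gonadotroph-like cells alone *Tcf7l1* was higher in the male library by less than 2-fold. The part of make-up in the value was not tested.

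The likeness of patterns was measured as Pearson's r of log2(CPM + 1) over 30 profiles, 15 classes in each of the 2 libraries, among 8233 genes that are no marker. The profiles share libraries and the classes share markers, so that r is a description without a test. Among the genes most like *Lef1* were *Pex5l* (0.84) and *Pdzrn4* (0.84). *Tcf7l1* was most like *Ahnak* (0.97), *Prelp* (0.96) and *Acsf2* (0.96), and *Tcf7l2* like *Sdhc* (0.94), *Parva* (0.94) and *Acadm* (0.92). *Tcf7* was most like *Vps26a* (0.86), *Smarcd1* (0.85) and *Wars* (0.83), and *Axin2* like *Ada* (0.88), *Anxa4* (0.87) and *Proser1* (0.84). Among the 10 genes themselves, over 15 classes within each library, r of *Tcf7l1* with *Tcf7l2* was 0.87 male and 0.75 female. It was 0.81 and 0.76 for *Lef1* with *Axin2*, 0.79 and 0.74 for *Lef1* with *Sp5*, 0.89 and 0.71 for *Nkd1* with *Lgr4*, and -0.56 and -0.41 for *Lef1* with *Tcf7l1*.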

How the data were processed

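The authors aligned the reads with Cell Ranger 3.0.2 to the mm10 transcriptome with eGFP added, and deposited UMI counts per gene and barcode as whole numbers, not normalized. The lowest total of a barcode was 500 male and 501 female UMIs, so that barcodes below this are not in the files. The methods name the v2 chemistry, while the labels name both v2 and v3. Barcodes with fewer than 50 genes, or a mitochondrial share over 3 SD above the library mean, were removed as in the methods (159 male and 85 female). Classes, CPM and intervals were computed in Python 3.11.15 with numpy 2.4.6, scipy 1.17.1 and pandas 2.3.3. Endocrine and mesenchymal definitions went before the differentiating one, and that before the stem one. Cells that met more than 1 endocrine or mesenchymal definition, or the mesenchymal and the stem one (244 and 51), were left out. The genes, lists and contrasts were chosen with earlier results of these data known, and the numbers of markers needed were set on the counts. Genes named are the 10 in every class, the listed pathway genes past 2-fold, and the 3 genes most like each TCF/LEF factor and *Axin2* that reach 20 CPM and 50 UMIs, of which 1 is not reported here. Doublets were not removed; Scrublet in scanpy 1.11.5 marked 867 male and 261 female cells for an alternative. Scaling factors came from edgeR 4.0.16 in R 4.3.3. The counting steps were tested on simulated data. Positions are from GENCODE vM21. Ligands and Frizzled receptors were not analysed here.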

Additional observations from a re-analysis of the deposited data

Results flagged for a closer look

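Cells that met no class definition enter no comparison between classes above, though those with 5000 UMIs or more that were not cycling are among the cells ordered by differentiation markers, and all 10 genes were found in them above the limit that a count of 0 allows (3 counts, or 0.525 male and 1.63 female CPM). In the male library these are 3106 cells, of which 193 had 5000 UMIs or more. *Lef1* stood at 54.2 male and 58.0 female CPM, *Tcf7* at 7.0 and 4.33, *Tcf7l1* at 21.5 and 15.2 and *Tcf7l2* at 67.5 and 63.9 CPM. Of the response genes *Axin2* stood at 30.8 and 28.7 CPM, *Sp5* at 9.44 and 5.96, *Nkd1* at 50.02 and 55.8, *Lgr4* at 132 and 91.5, *Znrf3* at 19.9 and 12.5 and *Rnf43* at 10.1 and 10.3 CPM. *Lef1* and *Sp5* were the genes whose intervals lay above those of SC-like cells in both libraries.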

How the results depend on the processing

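No paired analysis was possible because each sex has 1 library and no result comes from a test. Of 95 counts of genes under alternatives, 77 were within 1.5 times of the reported ones. No share over all genes is given for any alternative, here or in the passages above. The counts under alternatives therefore say nothing particular to these genes. Of the members, 7 were past 1.5-fold in differentiating-like against SC-like cells, and *Lef1*, *Tcf7l1* and *Sp5* were past 2-fold there under every alternative run. In cycling against other SC-like cells 1 gene was left (*Lef1*) with 1 more marker needed, with classes from thinned cells, with SC-like cells free of differentiation markers (the latter both chosen after seeing the data) and at 3-fold. In endocrine against SC-like cells the count was 5 with 1 more marker, with classes from thinned cells, at 1.5-fold and without endocrine cells that met the differentiating definition (also chosen after seeing the data). In late against early cells it was 0 with 1 more marker and with classes from thinned cells, and 3 at 1.5-fold. Of the pathway list 4 were past 3-fold. Between the sexes the count was 8 with 1 more marker, 9 with the mean over single cells, 8 with no floor, 17 at 1.5-fold and 1 at 3-fold. The log2 ratio of *Nkd1* in female endocrine to SC-like cells was -0.33 with 1 more marker and -0.12 without the cells that met the differentiating definition, against 0.53. Without those cells that of *Sp5* was -1.30 male and -0.44 female, against 0.58 and 1.13. The log2 ratio of *Lef1* in differentiating-like to SC-like cells ranged from 2.45 to 4.96, lowest with late markers alone. The cause of these changes was not tested. Depth limits *Sp5*, *Rnf43* and *Tcf7*, and the female maturing gonadotroph-like and POMC-like values.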
